A study of Mus musculus with 2 samples.

Results

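Hindbrain of mouse embryos, the tissue that forms the medulla, pons and cerebellum, was profiled by microRNA sequencing at embryonic day 16.5, and the microRNA genes inside the Sfmbt2 gene are described here. The only group was 2 pools of B6NCrl embryos of both sexes, called healthy in the labels, with no treatment, deletion or transgene named. Replicate 2 pooled 37 embryos, and for replicate 1 no number was stated. The 2 libraries held 5097205 and 4460836 sense counts. The members are all listed genes that GENCODE M21 annotates as microRNA genes wholly inside Sfmbt2 on its strand, 107 of 1973 listed genes. By symbol they comprise 20 Mir669, 20 Mir466, 14 Mir467 and 5 Mir297 genes and 48 genes with a provisional Gm name. Another 12 microRNA genes of that release inside Sfmbt2, among them Mir466e and 9 copies of Mir669a, were not analysed here.

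A microRNA is cut from the arms of a hairpin in a longer transcript and guides Argonaute proteins to messenger RNAs that pair with its seed, bases 2 to 8. Sfmbt2 encodes a Polycomb group protein with MBT repeats and is imprinted in the mouse, with expression from the paternal copy in extraembryonic tissue. The microRNA cluster in its large intron is found in rodents, arose by repeated duplication, and is best known from the placenta, where trophoblast cells express it.

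The same family names also occur outside Sfmbt2, at 10 listed genes on 7 other chromosomes, which serve here as relatives of the cluster. RefSeq (GRCm38.p6) gave a mature sequence for 8 of these 10 relatives, not for Mir297-1 and Mir466f-4, and for 0 of the 107 members. The 8 sequences are shown because they set the relatives apart letter by letter and because almost no uniquely placed read was counted at any of them. They run 5′ to 3′ with the seed in capitals.
mmu-miR-466i-3p: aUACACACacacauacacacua
mmu-miR-466j: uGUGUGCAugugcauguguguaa
mmu-miR-466k: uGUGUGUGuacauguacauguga
mmu-miR-466q: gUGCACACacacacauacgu
mmu-miR-467f: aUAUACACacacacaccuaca
mmu-miR-467g: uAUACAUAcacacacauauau
mmu-miR-467h: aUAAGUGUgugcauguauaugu
mmu-miR-669n: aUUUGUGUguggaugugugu

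The 8 sequences had 8 different seeds, so no pair of them shared a seed, although they carry only 3 family names. The dinucleotide CA occurred at least 5 times in 4 of them (miR-466i-3p, miR-466q, miR-467f and miR-467g), and UG at least 5 times in the other 4. The seed of miR-467h was also that of miR-668-5p, and none of the other 7 seeds recurred among the 1738 mature sequences of that RefSeq set. That set matched 0 of the 107 members, so a seed shared with the cluster could not be found.

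Nearly all assigned reads under these family names lay at the members and not at the relatives. The 107 members held 26193 sense counts in replicate 1 and 24009 in replicate 2. The 10 relatives together held 0 and 1 counts, the single count at Mir466q. Over both libraries the ratio of these sums, of 107 genes and of 10, was 50202 to 1, with an exact binomial 95% interval from 9010 to 1982913 that covers counting error only, since no molecular identifiers mark separate molecules. Reads that fit several places are in neither sum, so the ratio is of uniquely placed reads and not of mature microRNA. Most members lacked reads as well: 80 of the 107 had no count, and 3 Mir467 genes held 84.3% of the cluster's counts. The ratio thus describes the sums and not a typical gene of either group.

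The cluster held a small part of the uniquely placed sense counts of hindbrain. It made up 0.526% ± 0.0172 of all sense counts (SD, n = 2), with 0.514% in replicate 1 (exact binomial 95% interval 0.508% to 0.520%) and 0.538% in replicate 2 (0.531% to 0.545%). The intervals do not overlap, so the libraries differed in this share by more than counting error. In tissue pools, fewer cells that make these microRNAs and less of them per cell cannot be told apart. Reads that fit several places are not in this share, and how many of them come from the cluster was not tested.

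Few members carried these counts. At least 10 counts in both libraries, called detected below, were found for 10 of 107 members, which is 9.35%, against 19.5% of all listed genes. A count in either library was found for 27 members, 25.2%, against 37.4% of all listed genes, and the remaining 80 had none. Of these 80, 29 belong to numbered sets of copies and 44 have a Gm name. The counts leave out reads that fit several places in the genome, so a count of 0 limits only uniquely placed reads, to 3 counts or 0.589 CPM (counts per 1000000 sense counts) in replicate 1 and 0.673 CPM in replicate 2. The median level was 0 CPM both over the 107 members and over all listed genes.

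**Figure D1:**
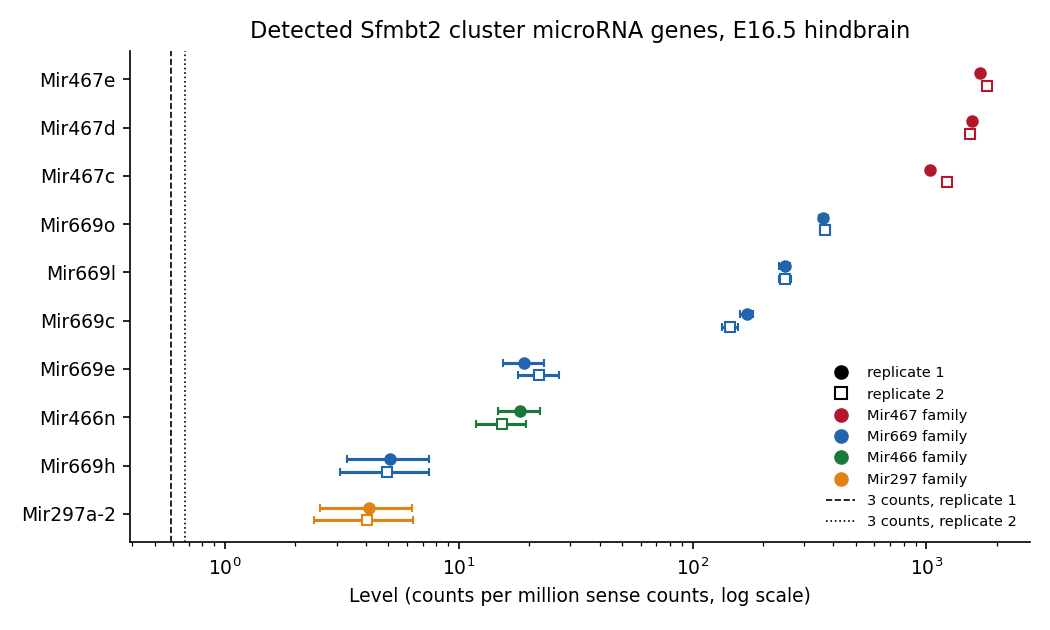
Level of the 10 detected members (CPM, log axis) in replicate 1 (filled circles) and replicate 2 (open squares), coloured by family; bars are exact binomial 95% intervals and vertical lines mark 3 counts. The 3 Mir467 genes lie at 1041 CPM or more in both libraries, and Mir297a-2 and Mir669h lie near 4 to 5 CPM.

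Mir467 was the leading family by uniquely placed reads, although 11 of its 14 genes were not detected. It held 84.3% ± 0.800 of the cluster's counts (SD, n = 2), with 83.8% in replicate 1 and 84.9% in replicate 2. Mir467e (ENSMUSG00000076948.2; chromosome 2, 10505721 to 10505807, mm10) was the highest member, with 8609 and 8081 counts, or 1689 and 1812 CPM. It was number 77 of all listed genes by mean level. Mir467d (10507630 to 10507714), 1822 bases downstream of Mir467e, had 8026 and 6849 counts, or 1575 and 1535 CPM. Mir467c (10473931 to 10474027) had 5308 and 5451 counts, or 1041 and 1222 CPM. Replicate 2 was the higher library for Mir467e and Mir467c and the lower for Mir467d. These 3 genes alone held 84.3% ± 0.788 of the cluster's counts.

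The other 11 Mir467 genes had few or no uniquely placed reads. Mir467b had 0 counts in replicate 1 and 4 in replicate 2. All 10 Mir467a copies had 0 counts in both libraries. They are spread along the middle of the cluster with a median distance of 2462 bases from start to start.

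Mir669 was the second family, with 15.2% ± 0.727 of the cluster's counts (SD, n = 2) and 5 of its 20 genes detected. Mir669o had 1851 and 1645 counts, or 363 and 369 CPM, in replicates 1 and 2. Mir669l had 1264 and 1113 counts, or 248 and 249.5 CPM. For both genes the counting intervals of the libraries overlapped. Mir669c had 869 and 644 counts, or 170 and 144 CPM, and here the counting intervals of the libraries did not overlap. The last detected genes of the family were far lower, Mir669e with 97 and 98 counts and Mir669h with 26 and 22. Among the other 15, Mir669a-3 had 2 and 1 counts, Mir669f 5 and 0, Mir669m-2 0 and 1, and 12 had none.

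Mir466 and Mir297 contributed almost nothing to the counts. Of 20 Mir466 genes only Mir466n was detected, with 93 and 68 counts, or 18.2 and 15.2 CPM. The family as a whole held 0.350% ± 0.0714 of the cluster's counts (SD, n = 2). Mir466h (1 and 2 counts) and Mir466 (1 and 1) followed, 6 more Mir466 genes had counts in a single library, the highest being Mir466b-3 with 5 and 0, and 11 had none. Of 5 Mir297 genes only Mir297a-2 was detected, with 21 and 18 counts, or 4.12 and 4.04 CPM, and Mir297b had 0 and 1. The family held 0.0797% ± 0.000733.

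None of the 48 members with a Gm name was detected. Gm25263 had 3 and 4 counts, Gm22239 3 and 2, Gm22072 2 and 3 and Gm22925 2 and 0, and the other 44 had none. A wide gap separated detected from undetected members: the lowest detected gene, Mir297a-2, had at least 18 counts in each library, while no undetected gene had more than 5 in either. The 97 undetected members together held 29 and 20 counts.

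The order of the families by uniquely placed reads was the same in both libraries. Mir467 exceeded Mir669 by a log2 ratio of 2.42 in replicate 1 and 2.53 in replicate 2 (mean 2.47 ± 0.08, SD, n = 2). Mir669 exceeded Mir466 by 5.45 ± 0.23 and Mir466 exceeded Mir297 by 2.12 ± 0.28. Each mean lay beyond 2 SD with the same sign in both libraries, the rule used here to call a difference, because 2 libraries give an exact sign-flip test no p below 0.5. It takes in the spread between these libraries, not a bias shared by both. The ratio of Mir466 to Mir297 was mostly that of Mir466n (93 and 68 counts) to Mir297a-2 (21 and 18). Numbered copies, whose shared reads are not counted, were 10 of 14 Mir467, 9 of 20 Mir669, 11 of 20 Mir466 and 3 of 5 Mir297 genes. The order of the families in mature microRNA was therefore not tested.

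Among the 10 detected members, 7 of the 9 steps from a gene to the next lower gene were beyond 2 SD. The genes were ordered by mean level in the same 2 libraries, so the direction of the steps was set by that ordering. Mir467e exceeded Mir467d by a log2 ratio of 0.10 in replicate 1 and 0.24 in replicate 2, within the limit. Mir467d exceeded Mir467c by 0.46 ± 0.19 (SD, n = 2), and Mir467c exceeded Mir669o, the next gene, by 1.62 ± 0.15. The steps from Mir669o to Mir669l (0.56 ± 0.01) and from Mir669l to Mir669c (0.66 ± 0.18) were also past the limit. The largest step, 2.94 ± 0.32, lay between Mir669c and Mir669e, which leaves 6 genes with 99.0% ± 0.0525 of the cluster's counts. Mir669e and Mir466n did not differ beyond their spread (0.06 and 0.53). Mir466n exceeded Mir669h by 1.73 ± 0.15. Mir669h exceeded Mir297a-2 by 0.30 ± 0.01, but with 18 to 26 counts each their counting intervals overlapped in both libraries. From Mir467e to Mir297a-2 the range was 8.74 ± 0.09 on the log2 scale.

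All 107 members lay in the same intron, the 10th of transcript Sfmbt2-201 and the 11th of Sfmbt2-205 (chromosome 2, 10461473 to 10523944, plus strand, mm10), and 0 overlapped an exon of either transcript. They span 53.0 kb (10465287 to 10518279), and the median gap between neighbouring hairpins was 210 bases. Members with counts were found at both ends of the array. The 17 members from its start to Mir467c include 4 detected genes (Mir669e, Mir669l, Mir297a-2 and Mir467c), within 6.53 kb, and held 25.6% and 27.8% of the cluster's counts in replicates 1 and 2. The 30 members from Mir467e to the end include 6 detected genes, within 12.6 kb, and held 74.4% and 72.1%. Between Mir467c and Mir467e lie 31.7 kb with 60 members, of which 3 had any count, 7 counts in replicate 1 and 5 in replicate 2 in all. This middle stretch holds 34 Gm names, 22 numbered copies and 4 single-locus names, against 15 single-locus names among the 30 members from Mir467e on and 7 among the first 17, so position and kind of name cannot be told apart. These 3 stretches were drawn after the values were seen. The 12 microRNA genes inside Sfmbt2 that were not analysed all lie between Mir467c and Mir467e, so that stretch lacks values for them.

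**Figure D2:**
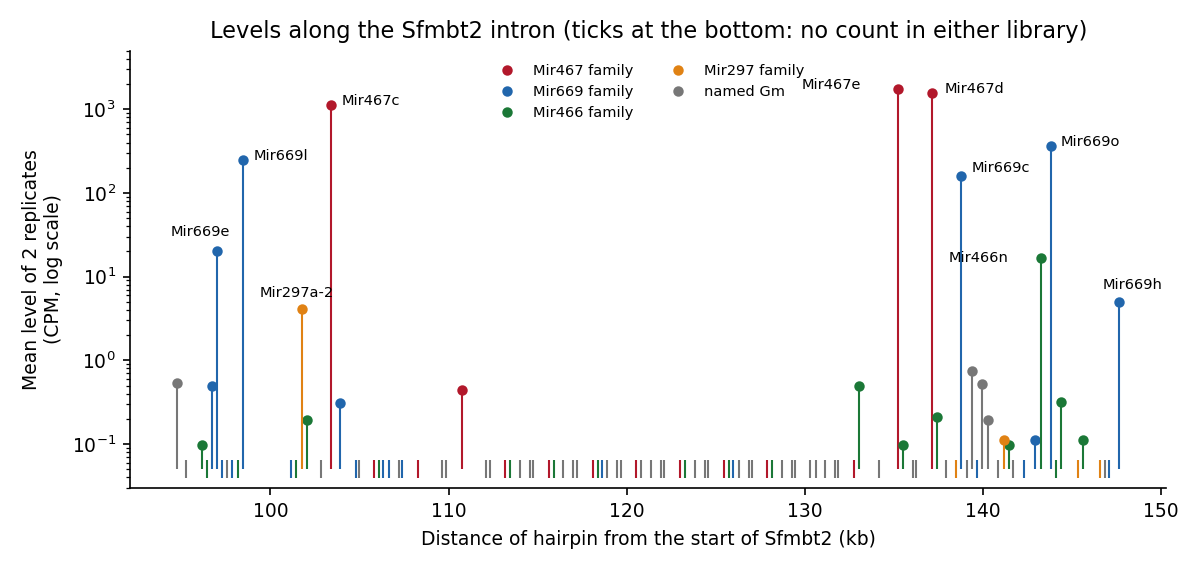
Mean level of each member over the 2 replicates (CPM, log axis) against the distance of its hairpin from the start of Sfmbt2 in kb, coloured by family; ticks at the bottom are members with no count in either library. The 10 detected genes stand at both ends of the array. The 60 members in the 31.7 kb between Mir467c and Mir467e, most of them numbered copies or Gm names, have 12 counts in all. The 12 genes not analysed lie in the same stretch and are not drawn.

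Members also differed by the kind of name they carry. In microRNA naming, a final copy number marks loci that give the same mature sequence. Of 26 members named as a single locus, 9 were detected and 19 had a count, and this class held 99.9% ± 0.0172 of the cluster's counts (SD, n = 2). Of 33 members that belong to a numbered set of copies, such as Mir467a-1 to Mir467a-10 or Mir466b-2 to Mir466b-8, only Mir297a-2 was detected and 4 had a count, which gives 28 and 20 counts in all. Reads that fit several places in the genome were not assigned to any gene and appear only as a total, 3802165 in replicate 1 and 3410352 in replicate 2, or 145 and 142 such reads per count of the cluster. How many of them come from the cluster was not tested, so a count of 0 at a copied hairpin is not a measure of its microRNA. Names in letters can also hide shared sequence, so the levels of single members, the leading Mir467 genes included, are uncertain.

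**Figure D3:**
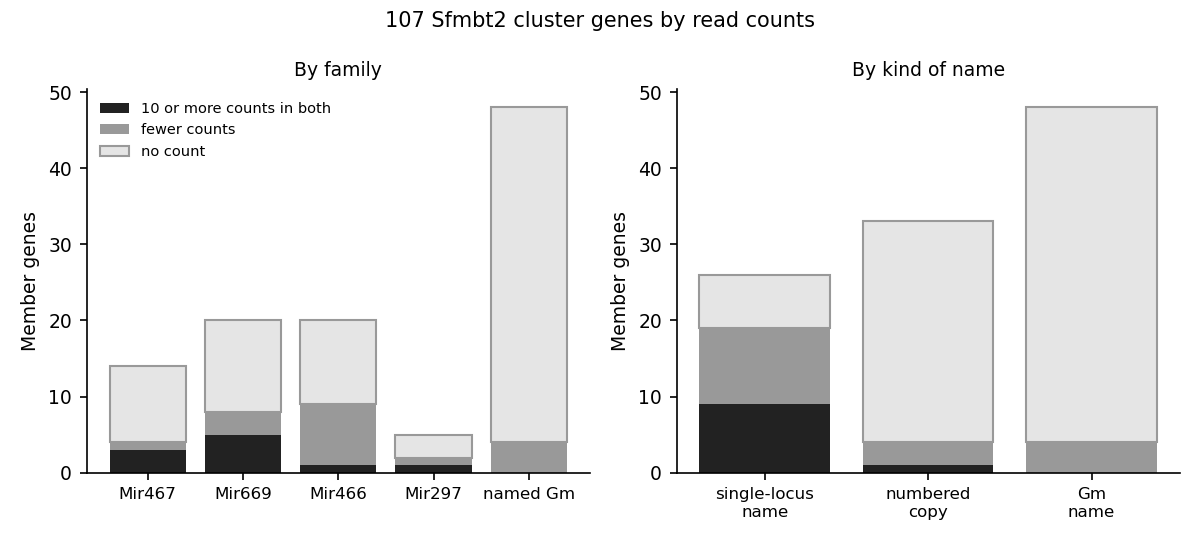
Number of member genes by family (left) and by kind of name (right), split into genes with at least 10 counts in both libraries (black), with fewer counts (grey) and with no count (light). The detected genes are 9 of 26 single-locus names, 1 of 33 numbered copies and 0 of 48 Gm names.

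Every count of the cluster lay on the strand of Sfmbt2. Reads on the opposite strand were 0 for all 107 members in both libraries, while they made up 2.41% and 2.44% of the assigned reads over all listed genes. Of the 107 members, 80 had no sense count either. How many of all listed genes had 0 opposite-strand reads was not counted, so whether the cluster differs from other genes in this was not tested.

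The pools were close to each other for the detected members. After TMM scaling of the library totals, log2 ratios of replicate 2 over replicate 1 lay between -0.19 and 0.30, with a median of 0.05 over the 10 members and 0.00 over all 401 genes tested. The median size of the ratio, without its sign, was 0.13 for the members and 0.18 for all tested genes. An exact two-sided binomial test, which measures counting noise and compares these libraries and not conditions, called 3 of 10 members after Benjamini-Hochberg adjustment over all tested genes, against 46.4% of all tested genes. Of the 3, 1 was higher in replicate 1, against 24.4% of all tested genes, and 2 in replicate 2, against 21.9%. Mir467c was higher in replicate 2 (log2 ratio 0.30, 95% interval 0.24 to 0.35, adjusted p = 1.91e-25, exact binomial test). Mir467e was also higher in replicate 2 (0.17, interval 0.12 to 0.21, adjusted p = 7.13e-13, exact binomial test). Mir669c was higher in replicate 1 (-0.18, interval -0.32 to -0.03, adjusted p = 0.0437, exact binomial test), and its call was lost without the minimum summed count of 20 (adjusted p = 0.0774). With a biological coefficient of variation set to 0.1, edgeR's exact test called 0 members, 0 also at an unadjusted p under 0.05, and 1.75% of all tested genes. The common dispersion of these libraries, estimated without a contrast, gave a larger coefficient of 16.3%.

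**Figure D4:**
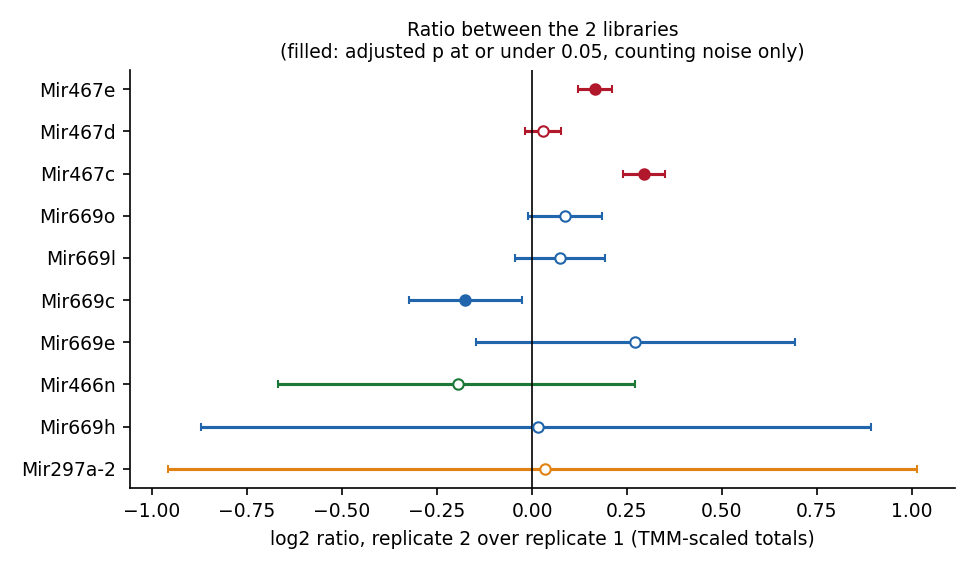
log2 ratio of replicate 2 over replicate 1 with TMM-scaled totals for the 10 detected members, from the highest mean level at the top to the lowest; bars are exact binomial 95% intervals, filled points have an adjusted p at or under 0.05 by the exact binomial test. Mir467c and Mir467e lie to the right of 0, Mir669c lies to the left, and the other 7 intervals include 0.

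The differences changed the make-up of the cluster a little. Mir467c took 20.3% of the cluster's counts in replicate 1 and 22.7% in replicate 2, while Mir467d took 30.6% and 28.5% and Mir467e 32.9% and 33.7%. The Mir467 family as a whole had a log2 ratio of 0.15 between the libraries (interval 0.12 to 0.18), and Mir669 had 0.03 (-0.03 to 0.10).

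The imprinted Dlk1-Dio3 region, another large microRNA cluster, served as a comparison. Of its 53 listed genes between Meg3 and Mirg on the plus strand, 44 were detected, or 83.0%, against 9.35% of the Sfmbt2 members. The Sfmbt2 cluster held fewer counts, by a log2 ratio of -4.46 ± 0.10 (SD, n = 2), and its counts were more concentrated. Its 3 leading genes held 83.8% and 84.9% of its counts in replicates 1 and 2, against 53.7% and 58.5% for Mir487b, Mir127 and Mir369. The log2 ratio of these shares was 0.59 ± 0.07, beyond 2 SD. All these values are of uniquely placed reads. Among the 107 Sfmbt2 members, 33 are numbered copies and 48 have a Gm name, with 1 and 0 detected. The part of reads that fit several places in these contrasts was not tested.

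The lists of marker microRNAs held different shares of all sense counts. Mir10a and Mir10b, which lie in Hox clusters, held 10.1% and 8.59% of all sense counts in replicates 1 and 2. The miR-290 cluster of trophoblast and pluripotent cells, with 6 of 9 named genes listed, 2 detected and 1 at 0, held 0.00173% and 0.00179%. The neuronal list, with 5 of 8 listed genes detected, held 1.34% and 1.20%, led by Mir137 with 9157 and 7199 CPM. Its other names are numbered copies of Mir9, Mir124a and Mir128. Reads that fit several places are not counted for them, so the list's share may be too low to rank against the others. The endothelial Mir126a held 2.75% and 2.92%, the erythroid list 0.0216% and 0.0206% and Mir122 of liver 0.00410% and 0.00419%. The skeletal muscle list differed most between the pools, with 0.0375% and 0.00249% and 3 of 5 listed genes at 0. Most of it was its 1 detected gene, Mir206, with 370 and 24.2 CPM. The part of these cell types in the levels of the Sfmbt2 cluster was not tested.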

How the data were processed

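Small RNA of total RNA from 2 pools of E16.5 hindbrain was sequenced, with a size limit under 30 nt per the labels. Both deposited tables hold raw read counts, made by the authors on mm10 with GENCODE M4, per the text deposited with each sample. The aligner and counter: not given in the sources used here. Counts stand for both strands together and for each strand alone; of the last, the column with the larger sum was taken as sense. The 4 summary lines stayed out of the totals; unmapped reads were 15.5% and 15.2% and multimapping reads 34.5% and 35.1% of 11018624 and 9729498 reads. Gene identifiers without version were matched to GENCODE M21, on the same assembly (GRCm38), for 1894 of 1973 genes. The other 79 held 8 counts.

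CPM is counts per 1000000 sense counts. Levels are mean ± SD of 2 libraries, and intervals are 95% exact (Clopper-Pearson) binomial intervals. With 1 group there was no contrast, and edgeR's quasi-likelihood test could not be fitted. The libraries were compared by exact binomial tests on TMM totals over 401 genes whose counts summed to 20 or more, adjusted p at 0.05. On simulated data for this comparison (410 genes) the test called 65.7% of genes changed 1.25-fold, 86.4% at 2-fold, 98.5% at 4-fold and 1 of 211 unchanged genes. The simulation drew counting noise only, on plain totals, so these rates do not cover variation between pools. The members, lists and tests were chosen with earlier results of these data known. Named are all members with counts in both libraries, the highest of each family, and relatives and marker lists; the choice of other named members followed their values. Alternatives tried were unstranded counts, other totals and scalings, count minimums, overlap with Sfmbt2 on either strand, each replicate left out and edgeR's exact test. Scaling and edgeR's test used R 4.3.3 with edgeR 4.0.16 and DESeq2 1.42.0; all else used Python 3.11.15 with scipy 1.17.1, pandas 2.3.3, numpy 2.4.6 and, for plots, matplotlib 3.10.9.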

Additional observations from a re-analysis of the deposited data

How the results depend on the processing

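The cluster's share of 0.526% was 0.639% with the most abundant gene, Mir99a, left out of the total and 0.300% with multimapping reads added to it. The multimapping reads were added to the total only and not to the cluster's counts, so the share could only fall. Counting members with at least 1 count in both libraries gave 16 in place of 10. Without members that carry a copy number, an alternative added after the data were seen, the Mir297 family held 0.00208% of the cluster's counts in place of 0.0797%. With a biological coefficient of variation set to 0.1, edgeR's exact test called 0 members as different between the libraries, against 3 by the exact binomial test. For Mir669c the adjusted p ranged from 0.00356 (plain library totals) to 0.965 (edgeR's exact test). The other 47 recomputed values kept their direction and call, or stayed within 1 SD or 1.5 times of the main value. The share was 0.514% and 0.538% with each replicate left out. Many of the 47 could not have moved. With 2 libraries, a share, level or ratio from 1 library always lies within 1 SD of their mean. Unstranded counts could not change the family shares or ratios, because members and relatives had 0 opposite-strand counts. Of 70 recomputed levels of detected members, 25 moved by more than 1 SD, 10 in each of the alternatives that change the total by the top gene or the multimapping reads and 5 with unstranded counts. The 70 include the levels from 1 library alone, which could not move by more than 1 SD. The alternative that leaves out members by shared mature sequence was not run. No paired analysis was possible because the series has 1 group. The depth limits uniquely placed reads only: for a member at 0 counts it sets no limit on reads that fit several places.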
